A study of Mus musculus with 3 samples.

Results

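The 9 immediate early genes described here are Egr1, Ier2, Ier3, Klf6, Btg2, Fos, Jun, Junb and Atf3. They were taken by gene symbol, and all 9 were found among the 32285 genes of the deposited matrices. Their transcripts were counted in mouse embryonic stem cells of the line E14tg2a that carry the genotype Fgf4 -/-. Cells were plated in ES + LIF medium and then kept for 24 h in N2B27, a serum-free medium, with heparin and Chiron, an inhibitor of GSK3, at every dose. The libraries differed in the added FGF4, at 0, 5 or 50 ng/ml. Single cells were captured with 10x Genomics 3' chemistry, and each dose was 1 library, so no test between doses was possible and "higher" and "lower" describe these libraries.

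Immediate early genes are transcribed within minutes of a stimulus without new protein synthesis, and most of them return towards their starting level soon after. ERK signalling, which FGF4 activates through FGF receptors, drives many of them through the serum response factor SRF and its ETS-family partners, and p53, stress and ATF4 act on some of them as well. Their products are transcription factors (Egr1, Klf6, Fos, Jun, Junb and Atf3), regulators of growth and survival (Ier2 and Ier3) and a recruiter of the mRNA deadenylase (Btg2).

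The libraries held 373, 874 and 975 cells at 0, 5 and 50 ng/ml, 2222 in all, with 42726514, 75184072 and 81409975 unique molecular identifiers (UMIs). Median UMIs per cell were 107873, 91764 and 87334, and 0 cell barcodes were shared between libraries. Cells with more than 10% mitochondrial UMIs numbered 12, 133 and 153. All 8 pluripotency markers checked (such as Pou5f1 and Sox2) reached 20 CPM (the UMIs of a gene scaled to a library total of 1000000), and 0 of 12 fibroblast and 0 of 8 primitive endoderm markers did. The 12 fibroblast markers summed to 4.56, 4.39 and 4.63 CPM at 0, 5 and 50 ng/ml, and Col3a1 and Postn had no UMI at 0 or 50 ng/ml. Transcripts assigned to the mutated gene Fgf4 were counted at 51.7, 24.9 and 20.4 CPM. Where the counted tags lie relative to the mutation is not given in the sources used here, so these values check nothing about its loss.

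Egr1, a zinc-finger transcription factor that binds GC-rich promoters, was far lower with ligand than without. It was present at 40.8 CPM (95% interval 38.9 to 42.7) at 0 ng/ml, 15.6 CPM (14.7 to 16.5) at 5 ng/ml and 9.57 CPM (8.91 to 10.3) at 50 ng/ml, from 1742, 1175 and 779 UMIs. The highest level was thus in the library without ligand, and the 3 counting intervals did not overlap. How many of all genes had 3 intervals that did not overlap was not counted. Egr1 (ENSMUSG00000038418, mm10 chromosome 18, 34859823 to 34864984, plus strand) was 4.26-fold lower at 50 than at 0 ng/ml, with a counting interval of 3.91 to 4.64. At 5 ng/ml it was 2.61-fold lower than at 0 ng/ml, with an interval of 2.42 to 2.81. The step between the doses with ligand was smaller, 1.63-fold lower (1.49 to 1.79) at 50 than at 5 ng/ml. On the log2 scale, 66.2% of the difference at 50 ng/ml was already reached at 5 ng/ml. Every interval here covers counting error only.

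Library quality moved with the level of Egr1, because most cells rich in mitochondrial UMIs were in the libraries with ligand. When cells above 10% mitochondrial UMIs, or with a depth over 3-fold from the library median, were dropped, 359, 706 and 798 cells remained and Egr1 was 4.30-fold lower at 50 than at 0 ng/ml. Cells had been detached with trypsin or Accutase, and which enzyme was used for each library is not given in the sources used here. Of the 10 heat shock genes that reached 20 CPM, 0 passed 2-fold in either direction at 50 against 0 ng/ml. Their median log2 ratio was -0.06. Over all genes at this level 2.03% were lower and 1.98% higher, so 0 of 10 sets these genes apart from no others. Hspa1a and Hspa1b stayed under that level, with 0.538 and 1.12 CPM at 0 ng/ml against 0.491 and 0.737 CPM at 50 ng/ml. The part of detachment in the level of Egr1 was not tested.

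**Figure D1:**
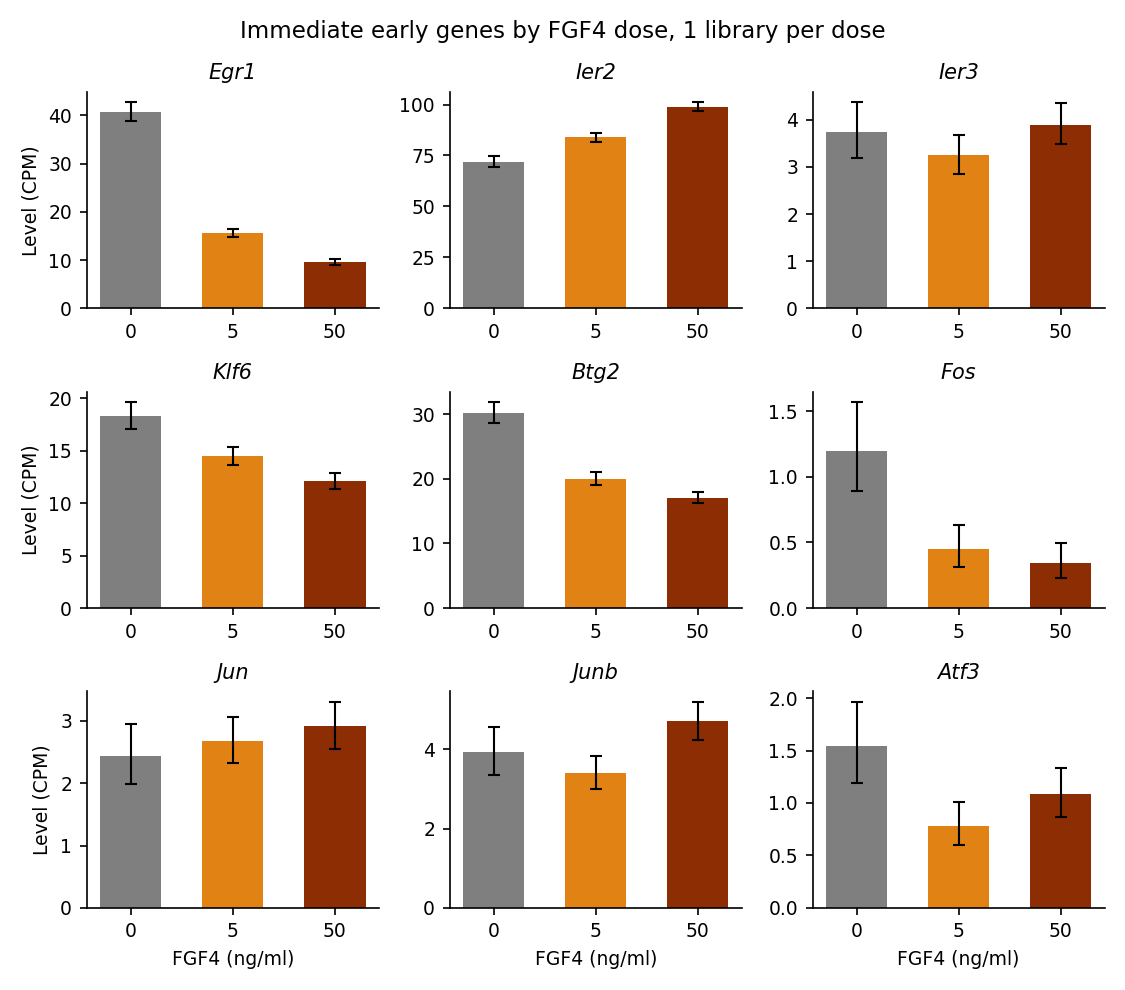
Level of each of the 9 genes in CPM (vertical axis, each panel with its own scale from 0) at 0, 5 and 50 ng/ml FGF4, 1 library per dose. Bars are the library's value and error bars the 95% Poisson interval for counting error. Egr1, Btg2 and Klf6 step down with dose in these library sums, Ier2 steps up with dose, and the intervals of Ier3 and Jun overlap at all doses.

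Btg2, Klf6 and Fos were lower with ligand too, in the same order of doses as Egr1 by library sums. Btg2, an antiproliferative protein that p53 is known to induce, was present at 30.2 CPM (28.6 to 31.9), 19.98 CPM (18.98 to 21.0) and 17.1 CPM (16.2 to 18.0) at 0, 5 and 50 ng/ml. Its ratios were short of 2-fold, 1.76-fold lower (1.63 to 1.90) at 50 than at 0 ng/ml and, at 5 than at 0 ng/ml, 1.51-fold lower (1.40 to 1.63). By mean share per cell its log2 ratio at 50 over 5 ng/ml was 0.00344 in place of -0.22, so its order between these doses depended on the scaling. Klf6, a Krüppel-like zinc-finger transcription factor, was present at 18.3 CPM (17.1 to 19.7), 14.5 CPM (13.6 to 15.4) and 12.1 CPM (11.3 to 12.9), and was 1.52-fold lower (1.38 to 1.67) at 50 than at 0 ng/ml. Fos, the FOS subunit of the dimeric factor AP-1, was rare, with 51, 34 and 28 UMIs in all, or 1.19, 0.452 and 0.344 CPM. Its ratio at 50 ng/ml was as steep as that of Egr1 within counting error, 3.47-fold lower (2.15 to 5.72) than at 0 ng/ml, and at 5 ng/ml it was 2.64-fold lower (1.68 to 4.20), but its levels at 5 and 50 ng/ml could not be told apart, since the interval of their ratio held 1.

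The promoters of the genes that were lower with ligand are shown to see which known elements they hold. RefSeq promoters (GRCm38.p6, the assembly of mm10) span 300 bases here, most of them before the gene's start. They were matched by symbol for 7 of the 9 genes, and Egr1 and Ier2 were not matched. The RefSeq start of Atf3 lies inside the longer gene of GENCODE M21, so its window surrounds an internal start. Btg2 (chr1:134079106-134079405, minus strand), Fos (chr12:85473640-85473939, plus strand) and Klf6 (chr13:5861239-5861538, plus strand) were lower with ligand, and Junb (chr8:84978699-84978998, minus strand) is shown beside them as a member that was not. Capitals mark a CRE (TGACGTCA), the CRE core TGACG, an EGR site (GCGNGGGCG) or a TATA box (TATAAA), read 5' to 3'.
Btg2: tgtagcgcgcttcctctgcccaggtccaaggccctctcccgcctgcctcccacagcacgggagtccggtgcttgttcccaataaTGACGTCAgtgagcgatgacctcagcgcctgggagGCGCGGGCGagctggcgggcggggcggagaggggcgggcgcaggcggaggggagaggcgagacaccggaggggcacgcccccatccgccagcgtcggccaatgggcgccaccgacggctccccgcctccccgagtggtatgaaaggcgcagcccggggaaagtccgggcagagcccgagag
Fos: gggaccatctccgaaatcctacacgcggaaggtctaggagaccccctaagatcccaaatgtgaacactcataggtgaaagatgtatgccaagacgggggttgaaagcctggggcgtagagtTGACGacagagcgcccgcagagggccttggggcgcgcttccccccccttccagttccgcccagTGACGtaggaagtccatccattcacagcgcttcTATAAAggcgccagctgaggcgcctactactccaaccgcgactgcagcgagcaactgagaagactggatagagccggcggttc
Klf6: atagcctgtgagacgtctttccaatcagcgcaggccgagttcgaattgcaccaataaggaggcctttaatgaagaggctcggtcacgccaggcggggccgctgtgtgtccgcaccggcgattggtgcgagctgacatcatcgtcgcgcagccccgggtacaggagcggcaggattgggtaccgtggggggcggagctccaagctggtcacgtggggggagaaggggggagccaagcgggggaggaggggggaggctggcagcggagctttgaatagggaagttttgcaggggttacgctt
Junb: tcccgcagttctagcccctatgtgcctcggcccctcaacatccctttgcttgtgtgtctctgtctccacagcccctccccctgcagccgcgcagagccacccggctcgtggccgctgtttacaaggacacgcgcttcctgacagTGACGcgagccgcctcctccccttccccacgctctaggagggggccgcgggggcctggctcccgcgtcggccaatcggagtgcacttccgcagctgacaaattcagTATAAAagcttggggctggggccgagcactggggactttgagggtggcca

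Btg2 held the full CRE, the element bound by CREB and ATF factors, as 1 of the 7 matched genes, against 1.79% of the 32851 promoters in the table. It was likewise 1 of the 7 with an EGR site, which 5.55% of all promoters hold. The CRE core, which lies within the CRE, was found in 4 of the 7 (Atf3, Btg2, Fos and Junb), against 20.8% of all promoters. The letters of a TATA box were found in Fos, beginning at -33 from the start used, and in Junb, beginning at 0, on that start itself. They were found in 13.6% of all promoters. The start used for Junb lies upstream of its GENCODE M21 start, 84978718, so its TATA letters lie before the latter. The AP-1 site TGANTCA, the ETS site CCGGAA and the CArG box bound by SRF were found in 0 of the 7, against 7.81%, 14.9% and 1.63% of all promoters. The p53 half-site, searched as a pattern of letters after seeing the data, was found in 0 of the 7 as well, against 8.36% of all promoters. Its pattern was RRRCWWGYYY, where R is A or G, W is A or T and Y is C or T. Both strands were searched, and a match or its lack describes the letters of these windows and not binding. Sites further from the start were not searched, so 0 of the 7 does not mean that these genes lack the element. The promoter of Klf6 held none of these motifs.

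Ier2, a short-lived nuclear protein induced by growth factors, differed in the other direction. It was present at 72.0 CPM (69.5 to 74.6), 83.9 CPM (81.8 to 86.0) and 98.9 CPM (96.8 to 101) at 0, 5 and 50 ng/ml, from 3078, 6308 and 8052 UMIs. The 3 intervals did not overlap and the order was the reverse of that of Egr1. It was 1.37-fold higher (1.32 to 1.43) at 50 than at 0 ng/ml, 1.16-fold higher (1.12 to 1.22) at 5 than at 0 ng/ml and 1.18-fold higher (1.14 to 1.22) at 50 than at 5 ng/ml. Ier2 thus differed by less than 2-fold in every comparison, with 48.1% of its log2 difference reached at 5 ng/ml.

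The remaining 4 genes were low, and none of them followed the order of the doses beyond counting error. Ier3, a stress-induced protein that affects cell survival, was present at 3.74, 3.25 and 3.89 CPM, and its ratio at 50 over 0 ng/ml was 1.04 (0.857 to 1.27). At 50 over 5 ng/ml Ier3 was at 1.20 (1.01 to 1.42). Jun, which forms AP-1 with Fos, was present at 2.43, 2.67 and 2.91 CPM, with a ratio of 1.20 (0.946 to 1.52) at 50 over 0 ng/ml. Junb, a related AP-1 subunit, was present at 3.93, 3.39 and 4.70 CPM and was 1.39-fold higher (1.18 to 1.63) at 50 than at 5 ng/ml, while its ratio at 50 over 0 ng/ml was 1.20 (0.995 to 1.44). Junb (ENSMUSG00000052837, chromosome 8, 84974484 to 84978718, minus strand) overlaps Prdx2 on the opposite strand, which was counted at 328, 304 and 330 CPM. Whether counting used strand is not given in the sources used here, so the low level of Junb is uncertain. The antisense gene Junos, which overlaps Jun, had at most 0.0702 CPM.

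Atf3, a stress-induced factor of the ATF and CREB family, depended on 1 cell. It was present at 1.54, 0.785 and 1.08 CPM, from 66, 59 and 88 UMIs, and its ratio at 50 over 0 ng/ml was 0.6998 (0.503 to 0.978). A cell without ligand held 28 of the 66 UMIs, and the next highest held 6. Without that cell, an alternative chosen after seeing the data, the ratio was 1.21 (0.821 to 1.83) at 50 over 0 ng/ml and 0.881 (0.576 to 1.36) at 5 over 0 ng/ml. The same cell held 38 UMIs of Ddit3 and 42 of Atf4, stress-response factors, or 677 and 748 CPM, against medians of 0 and 117 CPM in the other cells of that library. It was low in most pluripotency markers, such as Nanog with 89.1 CPM against a median of 266 CPM. It was not low in Utf1, with 35.6 CPM from 2 UMIs against a median of 32.1 CPM. The cell had 7 UMIs of Jun, but 0 of Egr1 and Fos.

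Counted over the group, 1 of the 9 members was at least 2-fold lower at 50 than at 0 ng/ml, and 0 were 2-fold higher or more. The count took genes whose higher library reached 20 CPM, which Egr1, Btg2 and Ier2 did among the members, and it was Egr1 that passed. Of the 5709 genes that reached this level, 2.03% were lower and 1.98% higher by this rule. At 5 against 0 ng/ml the count was again 1 of 9 lower (Egr1) and 0 higher, against 1.32% lower and 1.41% higher of 5691 genes. At 50 against 5 ng/ml only Ier2 reached the level, and 0 members were lower or higher, against 0.0545% and 0.0727% of 5501 genes. Without the level limit, the interval lay below 1 for 5 of the 9 at 50 against 0 ng/ml (Egr1, Klf6, Btg2, Fos and Atf3), above 1 for Ier2, and held 1 for Ier3, Jun and Junb. That of Atf3 rested on 1 cell and held 1 without it (0.821 to 1.83). All 9 reached 1 CPM in 1 of these libraries, and of the 12612 genes that did, 36.8% had an interval below 1 and 32.1% above 1, so an interval that leaves out 1 was common in these libraries. A difference of Jun, Junb or Ier3 between 50 and 0 ng/ml was thus not detectable at this depth.

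Other immediate early genes, 37 of them, did not share a direction. Of the 10 that reached 20 CPM, 1 was higher by this rule at 50 than at 0 ng/ml and 0 were lower, with a median log2 ratio of -0.21, against 0.02 over all 5709 genes. The higher 1 was Tiparp, an ADP-ribosyltransferase, at 75.0 CPM against 33.8 CPM, 2.22-fold higher (2.09 to 2.35). Just short of 2-fold were Klf4, a naive pluripotency factor, at 33.3 CPM at 50 ng/ml against 64.5 CPM at 0 ng/ml, and Ier5l, at 23.7 CPM against 42.9 CPM. Ier5l was 2.05-fold lower (1.92 to 2.20) at 5 than at 0 ng/ml and was the 1 gene past 2-fold there. At 50 against 5 ng/ml, 0 of the 10 that reached the level passed in either direction.

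**Figure D2:**
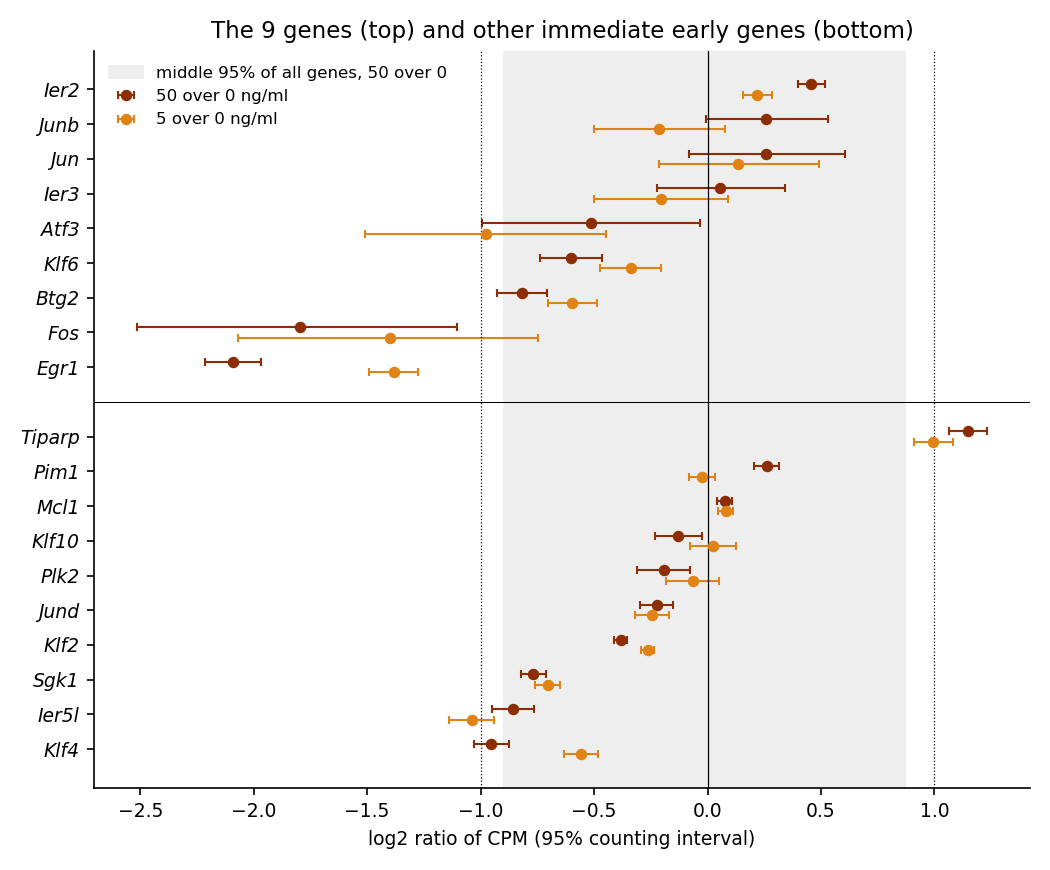
Log2 ratio of CPM at 50 over 0 (dark) and 5 over 0 ng/ml (orange) for the 9 genes, above the line, and the 10 other immediate early genes that reached 20 CPM, below it. Bars are 95% counting intervals, dotted lines mark 2-fold, and the grey band holds the middle 95% of the 5709 genes that reached 20 CPM at 50 or 0 ng/ml. Egr1 and Fos lie left of the band, and the other 7 members have their points within it at 50 over 0 ng/ml.

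Relatives and partners of the 9 genes gave few differences of this size. Tob1, which like Btg2 binds the CCR4-NOT deadenylase, was 2.39-fold lower (2.20 to 2.60) at 50 than at 0 ng/ml, with 12.3 CPM against 29.5 CPM, the 1 past 2-fold of the 3 that reached 20 CPM, among 5 genes of the BTG and TOB family. Btg1 was 1.88-fold lower (1.76 to 2.01), and the median log2 ratio of these 3 was -0.91. Of the 2 mRNA decay proteins of the Zfp36 family at 20 CPM, which bind AU-rich elements in unstable messages, Zfp36l1 was 2.09-fold higher (1.94 to 2.25) at 50 than at 0 ng/ml. Of 11 Krüppel-like genes beside Klf6, 7 reached 20 CPM and 0 passed 2-fold in either direction, with a median log2 ratio of -0.13. The AP-1 partners of Fos and Jun had 3 of 13 genes at 20 CPM, Jund, Mafg and Atf2, and 0 passed 2-fold. SRF and its partners, 7 genes, and the EGR relatives and co-repressors, 5 genes, had 0 at that level. Egr2, Egr3 and Egr4 were each below 0.2 CPM at every dose, so Egr1 was the only EGR factor counted above 1 CPM.

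The ERK feedback and ETS target genes were read beside Egr1 because the same pathway is known to induce both. Of the 8 that reached 20 CPM at 50 or 0 ng/ml, 6 were at least 2-fold higher at 50 than at 0 ng/ml and 0 were lower, with a median log2 ratio of 1.77. Spry2, an inhibitor of receptor tyrosine kinase signalling, was 7.38-fold higher (6.58 to 8.30). At 5 against 0 ng/ml, 5 of the 7 that reached 20 CPM were higher and 0 were lower, with a median of 1.48. The log2 ratios of Egr1 in the same libraries were -2.09 and -1.38.

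Read cell by cell, the lower level of Egr1 with ligand was made up of fewer cells with transcripts and fewer cells with many. Per cell, the lowest, median and highest level of Egr1 was 0, 11.03 and 660 CPM at 0 ng/ml, 0, 0 and 397 CPM at 5 ng/ml and 0, 0 and 359 CPM at 50 ng/ml. The cells of the 3 doses overlapped widely, since each library held cells at 0. At full depth 59.5%, 34.7% and 26.3% of cells had at least 1 UMI of Egr1 at 0, 5 and 50 ng/ml. With each cell thinned to 40000 UMIs, which left out 13, 168 and 182 shallower cells and kept 360, 706 and 793, the shares were 44.7% (39.5 to 50.0), 27.5% (24.2 to 30.9) and 18.7% (16.0 to 21.6, exact binomial). Cells with 5 or more UMIs made up 10.8%, 3.82% and 1.39%. All cells were of 1 line, so no cell type that should lack Egr1 was at hand to gauge free RNA in the droplets.

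Btg2 and Klf6 followed Egr1 in this reading, and Ier2 did not. Btg2 was found in 55.0%, 39.1% and 35.4% of thinned cells at 0, 5 and 50 ng/ml, and in 74.3%, 51.0% and 47.1% of cells at full depth. Klf6 was found in 48.1%, 38.8% and 34.0% of thinned cells, and in 73.5%, 53.8% and 51.7% at full depth. Both were thus found in most cells without ligand at full depth and in a smaller share at each dose of it. Ier2 was found in nearly every cell, in 92.5%, 95.3% and 96.5% after thinning and in 96.2%, 86.3% and 89.0% at full depth. Its order with dose at full depth went against that after thinning, in a library of deeper cells without ligand, so no order is read from the shares of Ier2. Its median was 3, 3 and 4 UMIs per thinned cell at 0, 5 and 50 ng/ml. The other 5 genes were found in few cells, in 1.13% (Fos at 50 ng/ml) to 15.3% (Junb at 50 ng/ml) of thinned cells and in 2.46% to 29.2% at full depth.

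**Figure D3:**
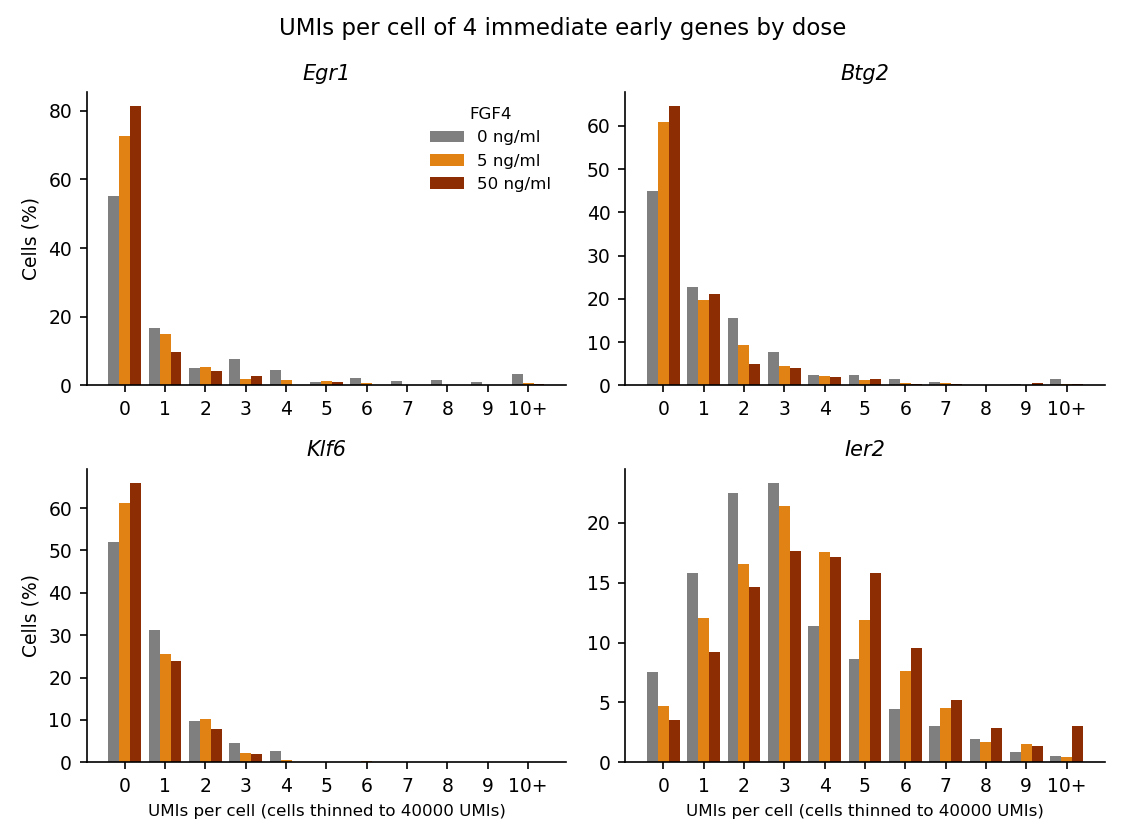
Share of cells (vertical axis, percent) by UMIs per cell (horizontal axis) for Egr1, Btg2, Klf6 and Ier2 at 0, 5 and 50 ng/ml FGF4, in cells thinned to 40000 UMIs. Egr1 has a long tail at 0 ng/ml that is thinner at 5 and 50 ng/ml, and Ier2 is centred on 3 to 4 UMIs at every dose.

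Transcripts of Egr1 were spread unevenly among cells at every dose. The 37 cells with most Egr1 UMIs, of 373, held 53.1% of them at 0 ng/ml, the top 87 of 874 held 70.3% at 5 ng/ml and the top 97 of 975 held 74.1% at 50 ng/ml. The Fano factor, the variance of UMIs per cell over their mean, was 6.36, 4.54 and 3.08 at 0, 5 and 50 ng/ml after thinning, against medians of 1.15, 1.11 and 1.08 for 1173, 1276 and 1205 genes of like mean in the same library. Of those genes, 99.1%, 99.5% and 98.5% had a lower Fano factor than Egr1. A Fano factor scales with the mean for a gene of fixed relative spread, and the mean of Egr1 differed between doses, so its order with dose is given as a description.

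Btg2 was uneven as well, with Fano factors of 2.78, 2.90 and 2.92, above 97.54%, 99.1% and 98.7% of genes of like mean. Klf6 had 1.31, 1.33 and 1.27, above 88.7%, 91.9% and 87.3% of such genes, whose medians were 1.11, 1.10 and 1.09. Ier2 had 1.39, 1.22 and 1.37, above 79.4%, 46.1% and 69.6%. Jun had Fano factors of 2.41, 1.87 and 3.43, and at 50 ng/ml its 97 richest cells of 975 held 91.6% of its UMIs. With the cell filter named above, Jun's value at 50 ng/ml was 2.22. Atf3 stood at 12.6 at 0 ng/ml, where the cell with 28 UMIs lies, against 1.08 at 5 ng/ml and 1.26 at 50 ng/ml.

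**Figure D4:**
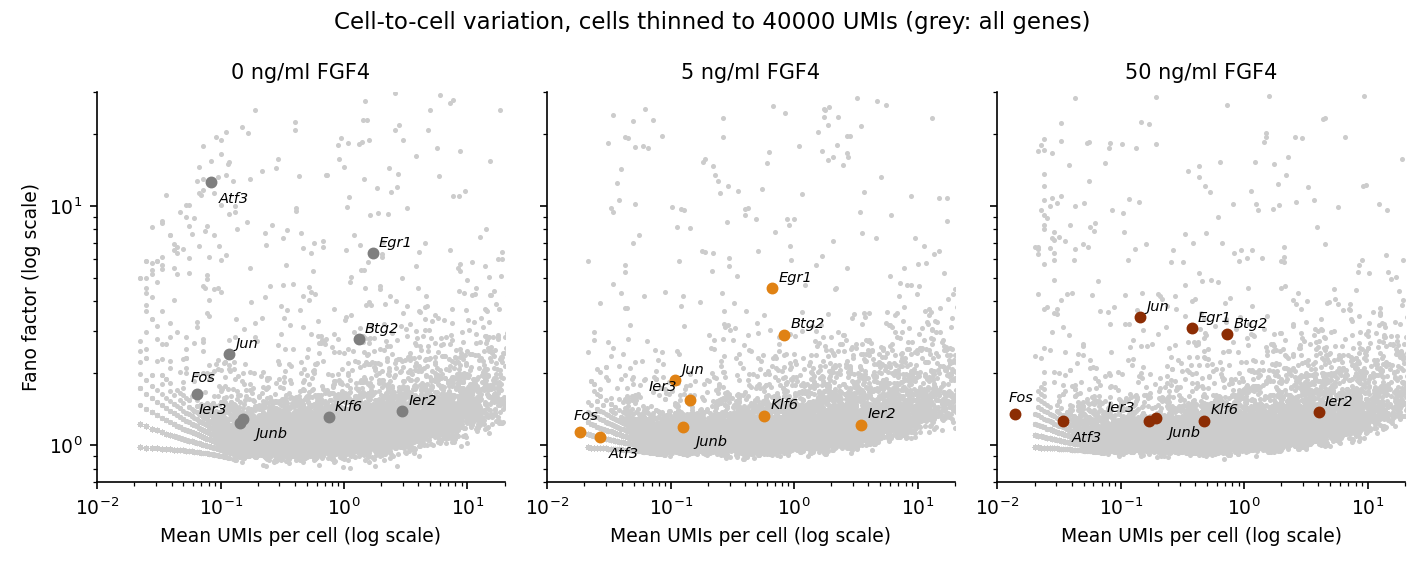
Fano factor against mean UMIs per cell, both on log axes, in cells thinned to 40000 UMIs, with 1 panel per dose, the 9 genes labelled and other genes that fall within the axes in grey. Egr1 and Btg2 lie above most genes of their mean in all 3 panels, Klf6 and Ier2 lie nearer to the grey points than Btg2 does, and Atf3 at 0 ng/ml stands at 12.6.

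From cell to cell, pairs of the 9 genes were at most weakly correlated, apart from the pair that rests on 1 cell. Over their 36 pairs, the median Pearson correlation of log2(thinned UMIs + 1) across cells was 0.03, 0.02 and 0.04 at 0, 5 and 50 ng/ml. The cells of a dose come from 1 library and were thinned to the same depth, and counts of most members are sparse. Egr1 and Jun stood at 0.23, 0.19 and 0.19, Btg2 and Jun at 0.18, 0.25 and 0.22, and Fos and Jun at 0.12, 0.19 and 0.22, values too weak in sparse counts to be read as more than a description. The highest pair at 0 ng/ml, Jun and Atf3 at 0.36, stood at 0.08 without the cell rich in Atf3.

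Btg2 varied with genes of the p53 pathway, which arrests the cell cycle or kills cells after DNA damage. Its correlation with the summed UMIs of 12 p53 targets (Btg2 not among them) was 0.48, 0.48 and 0.52 at 0, 5 and 50 ng/ml, over 360, 706 and 793 cells. Of the 12, 10 were above 0.1 in all 3 libraries, and the share of all genes above 0.1 with Btg2 was not counted. The kinase Plk2, which is also on the list of other immediate early genes, stood at 0.46, 0.44 and 0.45. The p53-inducible protein Trp53inp1 stood at 0.44, 0.43 and 0.50, and Mdm2, the ubiquitin ligase that degrades p53, at 0.42, 0.39 and 0.47. Bax (0.03, 0.07 and 0.09) and Sesn1 (-0.03, 0.01 and -0.03) were near 0. Across doses, 0 of the 9 p53 targets that reached 20 CPM passed 2-fold at 50 against 0 ng/ml in either direction, as Btg2 did not. Their median log2 ratio was -0.21, and 8 of the 12 had an interval below 1. Of the 12612 genes with 1 CPM or more, 36.8% had such an interval, which well-counted genes reach at small differences. Cdkn1a, the p53-induced inhibitor of cyclin-dependent kinases, had 76.2 CPM at 50 ng/ml against 118.6 CPM at 0 ng/ml, 1.56-fold lower (1.50 to 1.62).

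Egr1 showed no such relation to the ERK feedback and ETS targets, but several of these were nearly absent without ligand. Its correlation with their sum was -0.10, -0.15 and 0.02 at 0, 5 and 50 ng/ml, and 0 of 13 genes were above 0.1 in all 3 libraries. At 0 ng/ml Spry4, Spred3, Dusp4, Etv4 and Dusp6 had means of 0.0028, 0.025, 0.047, 0.053 and 0.056 UMIs per thinned cell. The count of 0 of 13 thus says little of these genes without ligand. With ligand the same genes, in the same order, stood at -0.03, -0.04, -0.05, -0.12 and -0.03 at 5 ng/ml. At 50 ng/ml they stood at 0.04, 0.09, 0.02, 0.01 and 0.01, where Etv4 had a mean of 3.44 UMIs and Spred3 one of 0.12. Of the 13 genes, 3 were negative in all 3 libraries and 0 were positive in all 3. Etv5 weighed most in the sum without ligand, with 7.67 UMIs per thinned cell, above 1.29 for Spred2, the next highest. The correlation of Egr1 with the share of mitochondrial UMIs was 0.22, 0.16 and 0.08. The part of this share in the variation of Egr1 was not tested. Klf6 stood at -0.25, -0.20 and -0.17 with the summed S phase genes, which copy DNA. It was negative with each of the 12 in all 3 libraries, but Rrm1 (-0.00086) and Tyms (-0.0014) were near 0 at 50 ng/ml. Shares of all genes with a like sign in all 3 libraries were not counted for Egr1, Klf6 or Atf3. Atf3 was positive with 11 of 12 ATF4 targets in all 3 libraries, but 2 of the 12 were above 0.1 in all 3. Its correlation with their sum was 0.27, 0.17 and 0.09 at 0, 5 and 50 ng/ml, with 0.22 at 0 ng/ml without the cell rich in Atf3.

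**Figure D5:**
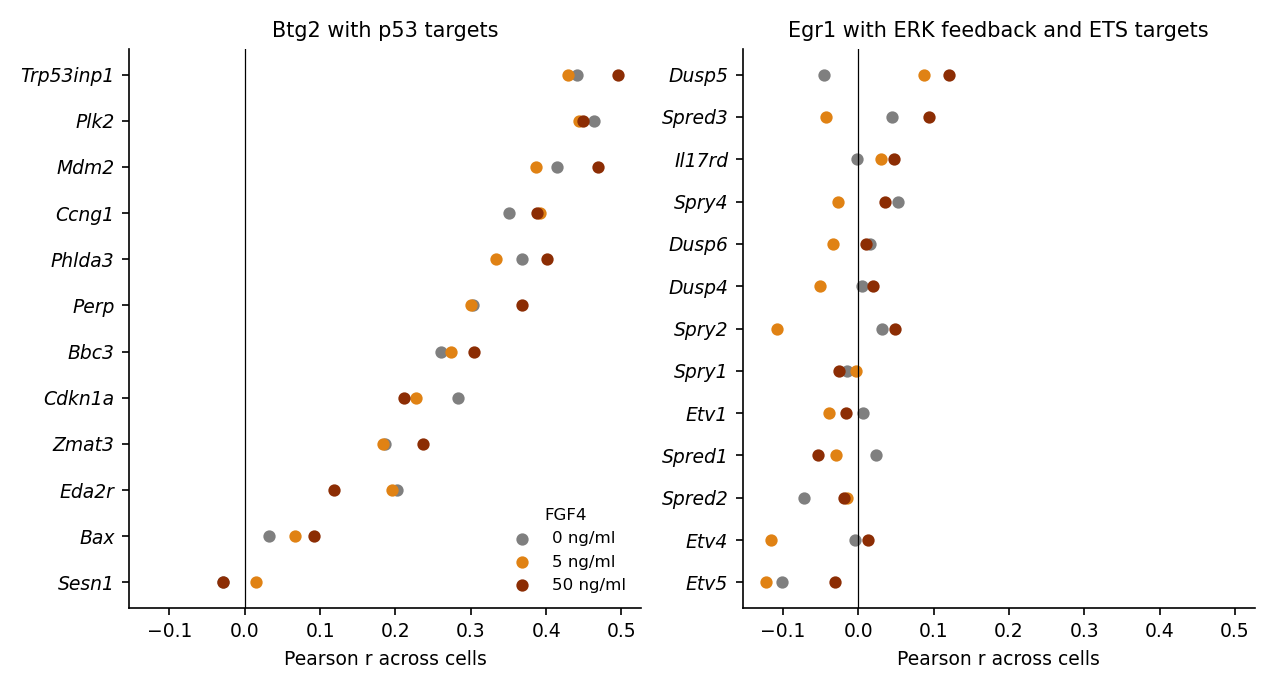
Pearson correlation across cells (horizontal axis) of Btg2 with 12 p53 targets, left, and of Egr1 with 13 ERK feedback and ETS target genes, right, at 0, 5 and 50 ng/ml FGF4. Points for Btg2 lie above 0.1 at every dose for 10 of 12 genes, and those for Egr1 lie on both sides of 0.

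The genes most like Egr1 from cell to cell were weakly so. Of 4872 genes with at least 20 CPM in every library, those with the highest mean correlation over the 3 libraries were mt-Co3 (0.20), Hist1h3e (0.18), Hist1h2ae (0.16), Tbx3 (0.16), Hist1h2ap (0.16) and Sdc4 (0.15). In single libraries, the middle 95% of all these genes ran from -0.16 to 0.13 at 0 ng/ml, -0.12 to 0.09 at 5 ng/ml and -0.10 to 0.09 at 50 ng/ml. No such range was computed for the mean. The named genes are a mitochondrially encoded oxidase subunit, histone genes with near-identical copies whose counts are uncertain, a naive pluripotency factor and a cell-surface proteoglycan. Tbx3 stood at 0.20, 0.16 and 0.12 with Egr1 at 0, 5 and 50 ng/ml and had 116, 60.9 and 47.2 CPM.

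Across doses, the genes whose log2 ratios at 5 and 50 over 0 ng/ml lay nearest to those of Egr1, among 5237 with at least 20 CPM at 0 ng/ml, were Ncam1, Lpar1, Kit, Elf3, Cpt1a and Cdo1. Both ratios share the library without ligand. Ncam1, a cell adhesion molecule, was nearest, at 30.4, 12.4 and 7.53 CPM at 0, 5 and 50 ng/ml, or 4.03-fold lower at 50 and 2.46-fold lower at 5 than at 0 ng/ml. Lpar1, a receptor for lysophosphatidic acid, had 32.7, 11.6 and 8.22 CPM, and Kit, a receptor tyrosine kinase, had 92.4, 31.3 and 22.3 CPM. The fold changes of these 6 genes ran from 3.53-fold to 4.15-fold lower at 50 than at 0 ng/ml, beside 4.26-fold for Egr1.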

How the data were processed

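UMIs were counted per gene and cell barcode by the authors with Cell Ranger 4.0.0, per the file headers, and these counts were deposited without normalization. Reads were aligned to mm10, per the submitters' processing notes. The rule for calling cells and the annotation release are not given in the sources used here.

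From these counts, UMIs of a gene were summed over the cells of a library and scaled to CPM. Levels carry exact Poisson intervals, ratios conditional binomial intervals and shares exact binomial intervals, all at 95% and for counting error only. With 1 library per dose no test was run. A gene was called at 2-fold among genes with 20 CPM or more in the library where it was higher. A gene with fewer than 3 UMIs in a library was set to 3 UMIs there for the log2 ratios of the main values. Cells were thinned without replacement to 40000 UMIs for shares, Fano factors and correlations. Scrublet in scanpy 1.11.5 called 12, 7 and 26 doublets, which were kept in the main values. Gene coordinates are those of GENCODE M21.

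The 9 genes, the 18 other gene lists and the rules were chosen with earlier results of these data known. Named are the 9 genes, list members at least 2-fold apart or on which a result turns, and the 6 genes most like Egr1 among cells and across doses. Symbols of predicted and ribosomal protein genes were left out of the last. Intervals were run on simulated Poisson counts, the model they assume, so this checked their arithmetic only. It says nothing of the spread among cells, which was wider in these data (Fano factor of Egr1 6.36 at 0 ng/ml). Alternatives were TMM (edgeR 4.0.16) and median-of-ratios scaling, the mean of shares over cells, library totals less mitochondrial and ribosomal genes, cell filters, equal cell numbers, other limits, other depths and Spearman correlation.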

Additional observations from a re-analysis of the deposited data

How the results depend on the processing

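Egr1 was 4.72-fold lower at 50 than at 0 ng/ml by mean share per cell and 5.86-fold lower without the 5% of cells richest in it, against 4.26-fold. The count of members at least 2-fold lower at 50 against 0 ng/ml became 2 without those cells, since Btg2 joined Egr1, and was 2 at a 1.5-fold limit and 0 at a minimum of 50 CPM. At 5 against 0 ng/ml it was 2 at 1.5-fold, 0 at 3-fold and 0 at 50 CPM. Thinned to 7000 UMIs, the share of cells with Egr1 was 19.5%, 7.18% and 5.25% at 0, 5 and 50 ng/ml, its Fano factor 2.06, 1.70 and 1.51, the correlation of Btg2 with p53 targets 0.22, 0.20 and 0.15, and that of Egr1 with Jun at 0 ng/ml 0.0463. Thinned to 63000 UMIs, the shares were 51.6%, 33.9% and 25.4%, and Btg2 stood at 0.60 with p53 targets at 0 ng/ml. In all, 22 alternative values of these main results moved and 118 did not, where moving meant leaving the counting interval (folds and shares), a factor over 1.5 (counts and Fano factors) or a step over 0.1 (correlations). The signs of Egr1, Ier2, Klf6, Btg2, Fos and Junb at 50 against 0 ng/ml held under every alternative run. That of Ier3 turned in 2 of 8 settings, that of Jun in 1 (log2 ratio -0.12 without its richest cells) and that of Atf3 in 1 of 9, and Btg2 at 50 against 5 ng/ml turned to 0.00344 by mean share per cell. Jun at 50 against 5 ng/ml turned in 2 of 8, to -0.20 without its richest cells and -0.03 with equal cell numbers, against 0.12. Scalings moved the median log2 ratio of all genes by less than 0.1. Counts over all genes moved by over 1.5 times with the level and fold limits: at 50 against 0 ng/ml, a minimum of 5 CPM gave 327 lower and 249 higher genes, 50 CPM gave 45 and 60, 1.5-fold gave 340 and 257 and 3-fold gave 32 and 53, against 116 and 113. At 5 against 0 ng/ml the same settings gave 202 and 200, 30 and 43, 227 and 211, and 22 and 30, against 75 and 80. At 50 against 5 ng/ml, lower genes ranged from 0 to 19 and higher genes from 0 to 17, against 3 and 4. No paired analysis was possible because each dose was 1 library. Depth limits Fos, Atf3, Jun, Junb and Ier3, each under 5 CPM.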

Other observations

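Several immediate early genes that stayed under 20 CPM differed between the libraries by more than most of the 9 described above, in both directions. Myc, a growth-promoting transcription factor, was 11.6-fold higher (9.14 to 14.9) at 50 than at 0 ng/ml, with 19.3 CPM against 1.66 CPM, and 7.93-fold higher (6.23 to 10.2) at 5 than at 0 ng/ml. Id1, an inhibitor of basic helix-loop-helix factors that BMP signalling is known to induce, was 4.94-fold higher (4.00 to 6.18) at 50 than at 0 ng/ml, with 10.99 CPM against 2.22 CPM. Csrnp1 had 12.8 CPM at 50 ng/ml against 6.13 CPM at 0 ng/ml. Gadd45b, a stress and growth-arrest gene, was 4.10-fold lower (3.63 to 4.63) at 50 than at 0 ng/ml, with 4.74 CPM against 19.4 CPM. Rhob, a small GTPase induced by growth factors and stress, was 2.02-fold lower (1.80 to 2.28).

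Among regulators of the 9, Nab2, a co-repressor that binds EGR factors and is itself known to be induced by Egr1, was 2.01-fold lower (1.56 to 2.60) at 50 than at 0 ng/ml, with 1.50 CPM against 3.02 CPM. Jdp2, a repressor that dimerizes with Jun, was 3.69-fold lower (2.57 to 5.36), with 0.577 CPM against 2.13 CPM. Elk3, an ETS-family partner of SRF, was 2.07-fold higher (1.55 to 2.81), with 2.86 CPM against 1.38 CPM. All of these genes lay below the level at which genes were counted in the report.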
